A study of Mus musculus with 19 samples.

Results

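The 9 genes described here encode readers and writers of histone H3 methylation at lysine 9 and proteins that work with them. They are the HP1 genes Cbx1, Cbx3 and Cbx5, and the HUSH complex genes Mphosph8, Tasor and Pphln1 with their partner Morc2a. The rest are the methyltransferase gene Setdb1 and Atf7ip, whose product stabilizes SETDB1. All 9 were picked by symbol as a functional group, with earlier results of these data known. All 9 were found among the 14173 genes of the deposited table. Polyadenylated RNA was sequenced from single mouse blastocysts, the stage at which inner cell mass and trophectoderm have separated, with 1 library per embryo. The Padi6-mutant group held 9 embryos, which grew from oocytes carrying Padi6P620A, a point mutant of the oocyte protein PADI6, and the Control group held 10 embryos with no allele named. The labels give neither the embryos' own genotype nor a litter, day or batch, so embryos were taken as independent, and p-values are too small if they share litters. By the labels 20 libraries were pooled for sequencing, and 19 are described here.

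HP1 proteins hold on to methylated H3K9 with a chromodomain and to each other and to many partners with a chromoshadow domain, and so link the mark to compacted chromatin. The HUSH complex gathers on transcribed DNA of retroelement origin, where MPP8, the product of Mphosph8, reads the same mark, TASOR is the scaffold and periphilin, the product of Pphln1, contacts RNA. HUSH brings in SETDB1, which trimethylates H3K9, and MORC2, an ATPase that compacts chromatin. In the early embryo and in embryonic stem cells SETDB1 is best known for silencing endogenous retroviruses together with TRIM28.

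Mphosph8 and Tasor, the reader and the scaffold of HUSH, had the differences farthest apart among the 3 HUSH subunits, and the 250 bases before their RefSeq starts are shown for that reason. Both windows are in GRCm38.p6, run 5′ to 3′ and hold no exon of their own gene. Another gene, Gm4032, has exon in the Mphosph8 window. Capitals mark CG dinucleotides, the sites of DNA methylation. The Mphosph8 window lies at chr14:56667998-56668247 on the plus strand and the Tasor window at chr14:27428584-27428833 on the plus strand.
Mphosph8: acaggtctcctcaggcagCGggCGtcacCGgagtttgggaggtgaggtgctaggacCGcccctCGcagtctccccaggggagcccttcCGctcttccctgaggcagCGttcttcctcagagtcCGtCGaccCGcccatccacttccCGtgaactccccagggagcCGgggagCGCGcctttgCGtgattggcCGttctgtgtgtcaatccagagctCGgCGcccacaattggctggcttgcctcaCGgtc
Tasor: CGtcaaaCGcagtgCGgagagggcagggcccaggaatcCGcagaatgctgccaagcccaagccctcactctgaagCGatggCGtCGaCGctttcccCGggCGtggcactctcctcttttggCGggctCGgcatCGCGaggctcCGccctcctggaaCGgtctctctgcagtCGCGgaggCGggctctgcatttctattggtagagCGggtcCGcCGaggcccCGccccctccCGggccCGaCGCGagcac
The Mphosph8 window held 19 CG at 65.6% GC and the Tasor window 27 CG at 68.4% GC, where the median of all 32851 windows of this length was 6 CG. Fewer CG than in Mphosph8 were found in 80.3% of windows and fewer than in Tasor in 91.4%. CCAAT, searched on both strands, occurred 2 times before Mphosph8 and 1 time before Tasor, and 33.8% of all windows held it. GGGCGG, also searched on both strands, occurred 2 times in each, and 32.7% of all windows held it. All 9 genes had a window, 13 in all, of which 6 held CCAAT and 9 held GGGCGG. The first Morc2a window held 39 CG, but 246 of its bases are Morc2a exon and Tug1, a long noncoding RNA, also has exon there. Whether these letters bear on the levels was not tested.

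Values are log2 of the scaled count plus 1 as deposited, where each library was scaled to the same upper quartile, and a difference is Padi6-mutant minus Control on that scale. The 9 genes were above 0 in all 19 libraries, and all 9 lay above the median gene in mean level. Genes at 0 numbered 117 ± 76.2 (SD, n = 10) in Control libraries, from 30 to 247, and 312 ± 191 (SD, n = 9) in Padi6-mutant libraries, from 113 to 596, with p = 0.00692 in a two-sided exact permutation test over 92378 splits. Padi6-mutant embryos 6, 8, 9 and 10 stood apart with 411 to 596 genes at 0. The spacing of the lowest values gave a total in 10 libraries, where the labels give an average of 4.2 M reads (M for mega). Totals ran from 28.4 to 41.5 M counts in 3 Control and from 12.1 to 28.4 M in 7 Padi6-mutant libraries. The other libraries, among them most Control libraries, gave no such total, so these ranges do not compare depth between the groups. Markers of the labelled stage were present: 8 of 9 inner cell mass genes were listed, summing to 16.31 to 17.18 in Control and 16.0 to 16.5 in Padi6-mutant libraries (log2), and 8 of 9 trophectoderm genes, summing to 17.73 to 18.64 and 16.72 to 18.87. Of 8 primitive endoderm genes 6 were listed, summing to 14.43 to 15.7 and 14.52 to 15.0. By limma 3 inner cell mass, 3 primitive endoderm and 1 trophectoderm genes fell and 0 rose. Over all genes the same fit called 12.0% lower and 14.6% higher. Among the 7086 genes above the median level, fitted alone, 1332 were lower and 1242 higher. Sox2 and Gata4 were at 0 in at least 1 library. Of 9 oocyte genes only Ooep was listed, at 7.88 to 10.54 in Control and 9.93 to 12.17 in Padi6-mutant libraries, and it rose by 1.93 (SE 0.34, limma adjusted p = 0.000235). Of 11 cumulus and granulosa genes 2 were listed, summing to 7.75 to 9.54 and 7.91 to 9.42. Whether library quality, depth or cell makeup contributes to the differences below was not tested beyond the fits named, and in whole embryos fewer cells of a type and less RNA per cell cannot be told apart. Padi6 itself ranged from 3.81 to 9.24 in Control embryos, and its difference of -0.04 (SE 0.78, limma adjusted p = 0.976) is no check of a point mutation carried by the oocyte.

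Of the 9 genes, 3 rose in Padi6-mutant embryos (Mphosph8, Cbx3 and Cbx1), 2 fell (Morc2a and Atf7ip) and 4 did not pass the test (Cbx5, Tasor, Pphln1 and Setdb1). Over all genes 26.6% passed the same limma test at an adjusted p of 0.05, 14.6% higher and 12.0% lower. The median difference of the 9 was -0.21, where that of all genes was -0.10. Each of the 3 gene groups held members that passed and members that did not, and HP1 and HUSH with its partner each differed among themselves in the sign of their differences.

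**Figure D1:**
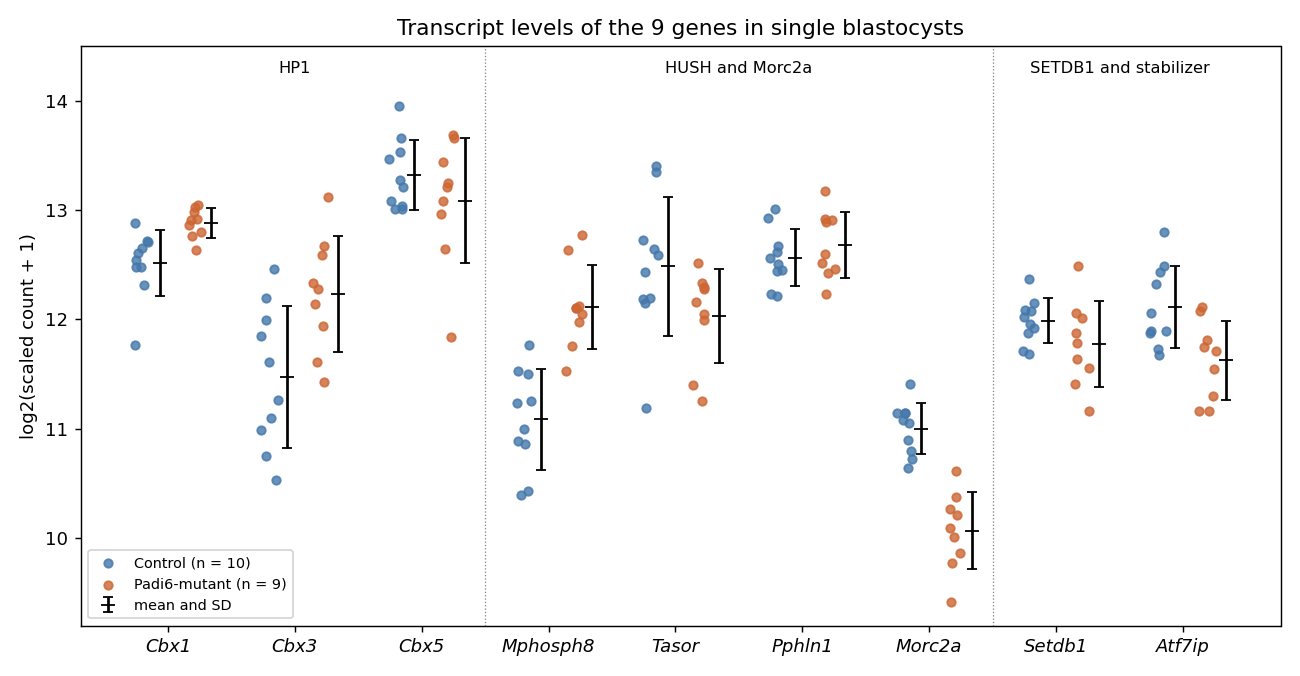
Level of each of the 9 genes in every embryo as log2(scaled count + 1), with 10 Control embryos in blue, 9 Padi6-mutant embryos in orange, and the mean and SD of each group as bars. All Morc2a values of Padi6-mutant embryos, up to 10.61, lie under the lowest Control value of 10.64, while the groups overlap for the other 8 genes.

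Mphosph8 encodes MPP8, the chromodomain subunit of HUSH. In Control embryos its level ran from 10.39 over a median of 11.12 to 11.77, and in Padi6-mutant embryos from 11.53 over 12.10 to 12.77. Of the 9 Padi6-mutant embryos, 7 lay above every Control embryo, and the groups overlapped through embryos 9 and 10, at 11.53 and 11.76. The difference was 1.03 (SE 0.20, 95% interval 0.62 to 1.43), or 2.04-fold, with limma adjusted p = 0.000454. In all 12 other ways of fitting it stayed between 0.95 and 1.14, and with each of the 19 libraries left out in turn between 0.95 and 1.10, always past the threshold.

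Morc2a encodes the mouse MORC2 ATPase that HUSH recruits. Its level ran from 10.64 over 11.07 to 11.41 in Control and from 9.42 over 10.09 to 10.61 in Padi6-mutant embryos. Every Padi6-mutant embryo was below every Control embryo, and Morc2a was the only one of the 9 genes whose groups did not overlap. Over all genes 2.96% had groups that did not overlap, 2.67% with Padi6-mutant embryos higher and 0.289% with them lower. The nearest pair was Padi6-mutant embryo 7 at 10.61 and Control embryo 6 at 10.64. Morc2a fell by 0.93 (SE 0.16, 95% interval -1.27 to -0.60), or 1.91-fold, with limma adjusted p = 0.00019. The difference lay between -0.99 and -0.70 in the 12 other fits and between -1.0 and -0.85 with each library left out, always past the threshold. Reads could be shared with Tug1 on the other strand, whose exons overlap 7.5% of Morc2a exon bases, since Nextera XT libraries do not mark strand. Tug1 was at 11.29 to 12.60 in Control and 10.66 to 12.03 in Padi6-mutant embryos, with a difference of -0.38 (SE 0.20, limma adjusted p = 0.161). With a term for how many genes each library detected, Tug1 was at -0.71 (limma adjusted p = 0.0351), and how far shared reads bear on Morc2a was not tested.

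**Figure D2:**
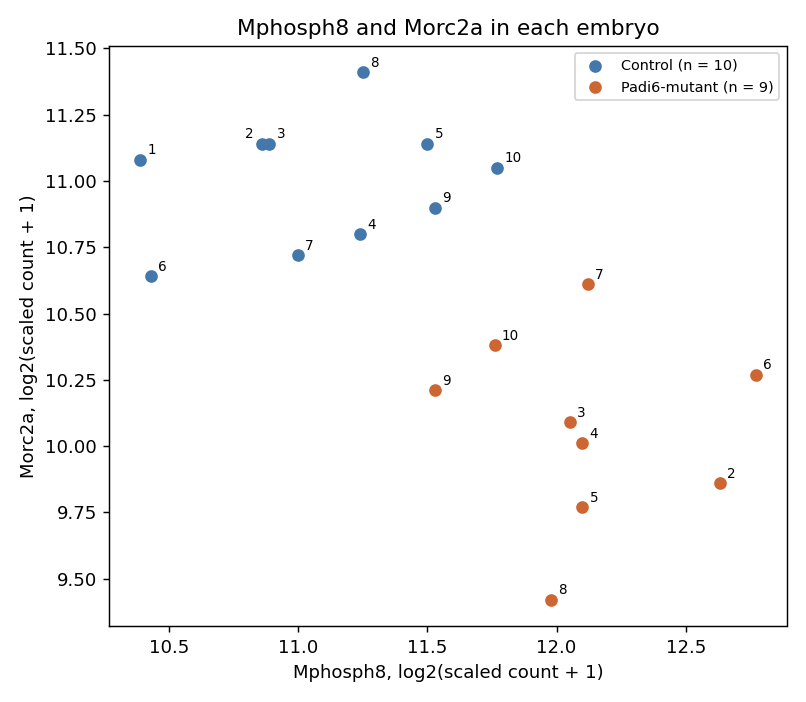
Morc2a level against Mphosph8 level, each as log2(scaled count + 1), with 1 point per embryo and its replicate number, Control in blue and Padi6-mutant in orange. All Padi6-mutant embryos sit below every Control embryo in Morc2a, and 7 of 9 sit right of every Control embryo in Mphosph8. Padi6-mutant embryo 7 is the highest of its group in Morc2a at 10.61 and embryo 9 the lowest in Mphosph8 at 11.53.

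Tasor, the scaffold of HUSH, ran from 11.19 over 12.51 to 13.40 in Control and from 11.25 over 12.16 to 12.52 in Padi6-mutant embryos. The groups overlapped fully at the low end, where Control embryo 6 held the lowest value of all 19, and 5 Control embryos lay above every Padi6-mutant embryo. Its difference of -0.46 (SE 0.24, 95% interval -0.94 to 0.03) did not pass, with limma adjusted p = 0.159. In the fit with a term for detected genes it was -0.72 with limma adjusted p = 0.0987. Without Control embryo 6 it was -0.60 with limma adjusted p = 0.0364, and over the other fits and omissions the adjusted p ran from 0.0144 to 0.276. Tasor shares 12.9% of its exon bases with Ccdc66 on the other strand, which was at 9.63 to 11.14 and 10.13 to 11.27 and had a difference of 0.10 (limma adjusted p = 0.719).

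Pphln1, which encodes the RNA-binding subunit periphilin, had the smallest difference of the 9 genes. It ran from 12.21 over 12.54 to 13.01 in Control and from 12.23 over 12.60 to 13.17 in Padi6-mutant embryos, and the groups overlapped almost wholly. Its difference was 0.12 (SE 0.15, 95% interval -0.19 to 0.42) with limma adjusted p = 0.588, so a change of up to 0.42 is within the interval. Its listed pseudogene Pphln1-ps1, which can share reads with it, was far lower, at 5.78 to 8.19 and 6.81 to 8.60, with a difference of 0.63 (limma adjusted p = 0.169) that passed with library quality weights (0.81, 0.0384). The reader, the scaffold and the RNA-binding subunit of 1 complex therefore had differences of 1.03, -0.46 and 0.12, of which the first alone passed the test.

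Ratios taken within each embryo do not depend on how a library was scaled, but they keep any shift between groups that goes with transcript length. The HUSH ratios below all share Mphosph8, which itself rose, so they are no separate evidence of a spread. They are read only as a comparison of groups, since the level of each ratio depends on transcript length, and no test was run on them. The log2 ratio of Tasor to Mphosph8 ran from 0.69 over 1.24 to 2.34 in Control and from -0.80 over -0.06 to 0.77 in Padi6-mutant embryos. Of the 9 Padi6-mutant embryos, 8 lay below every Control embryo, and embryo 9, at 0.77, overlapped. The ratio of Pphln1 to Mphosph8 ran from 1.07 over 1.41 to 2.19 in Control and from -0.21 over 0.46 to 1.39 in Padi6-mutant embryos. Again 8 of 9 were below every Control embryo, with embryo 9 the exception. The ratio of Morc2a to Mphosph8 ran from -0.72 over -0.06 to 0.69 in Control and from -2.76 over -2.09 to -1.32 in Padi6-mutant embryos, with no overlap. That ratio combines the 2 members with the smallest p, so its size follows from their choice.

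Setdb1 encodes the methyltransferase that HUSH and the TRIM28 pathway share. It ran from 11.68 over 11.99 to 12.37 in Control and from 11.16 over 11.78 to 12.49 in Padi6-mutant embryos. The spread was wider in Padi6-mutant embryos, which held both the lowest value (embryo 3) and the highest (embryo 7) of all 19. Its difference of -0.21 (SE 0.16, 95% interval -0.53 to 0.11) did not pass, with limma adjusted p = 0.337, and was -0.01 in both fits with a length and GC trend removed. Atf7ip, whose product keeps SETDB1 in the nucleus and protects it from degradation, ran from 11.67 over 11.98 to 12.80 in Control and from 11.16 over 11.71 to 12.11 in Padi6-mutant embryos. The groups overlapped, with 4 Padi6-mutant embryos below every Control embryo and 4 Control embryos above every Padi6-mutant embryo. Atf7ip fell by 0.49 (SE 0.17, 95% interval -0.85 to -0.13) with limma adjusted p = 0.0406. That call was lost when any of 10 libraries was left out (Control 1, 2, 3, 4 or 8, or Padi6-mutant 3, 4, 5, 6 or 9), with differences of -0.50 to -0.42 and adjusted p of 0.0524 to 0.0785. The log2 ratio of Atf7ip to Setdb1 ran from -0.34 over 0.11 to 0.75 in Control and from -0.62 over -0.25 to 0.24 in Padi6-mutant embryos, with 3 of 9 below every Control embryo.

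Of the 3 HP1 genes, Cbx3 and Cbx1 rose and Cbx5 did not pass the test. Cbx3, which encodes HP1γ, the form also found in the bodies of transcribed genes, ran from 10.53 over 11.43 to 12.46 in Control and from 11.43 over 12.28 to 13.12 in Padi6-mutant embryos. The groups overlapped, with 3 Padi6-mutant embryos above every Control embryo and 5 Control embryos below every Padi6-mutant embryo. Cbx3 rose by 0.76 (SE 0.25, 95% interval 0.24 to 1.29), or 1.70-fold, with limma adjusted p = 0.0297. Leaving out any of 7 libraries (Control 1, 2, 6 or 7, or Padi6-mutant 2, 6 or 8) gave 0.65 to 0.72 with adjusted p of 0.0502 to 0.0592. RefSeq names 6 Cbx3 pseudogenes and none is among the listed genes, so how reads from them were assigned is not known.

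Cbx1, which encodes HP1β, had the smallest spread of the 9 genes, with a pooled SD of 0.24 that 97.7% of genes above the median level exceeded. It ran from 11.77 over 12.57 to 12.88 in Control and from 12.63 over 12.91 to 13.05 in Padi6-mutant embryos. All 9 Padi6-mutant embryos were above the Control median and 5 were above every Control embryo, while Control embryo 1 lay well under the rest at 11.77, the next being 12.31. Cbx1 rose by 0.37 (SE 0.13, 95% interval 0.09 to 0.64), or 1.29-fold, with limma adjusted p = 0.0455. The call held only when Control 3, 5 or 9 or Padi6-mutant 9 was the library left out, and was lost in the other 15 omissions, with differences of 0.28 (without Control 1) to 0.38 and adjusted p of 0.0512 to 0.0797.

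Cbx5, which encodes HP1α, the form most tied to pericentromeric heterochromatin, ran from 13.01 over 13.24 to 13.95 in Control and from 11.84 over 13.21 to 13.69 in Padi6-mutant embryos. The medians lay closer than the spread of either group, and the low value of 11.84 was that of Padi6-mutant embryo 6, the library with the most genes at 0. Its difference of -0.24 (SE 0.20, 95% interval -0.66 to 0.18) did not pass, with limma adjusted p = 0.41, and without that embryo it was -0.08. Within embryos, the log2 ratio of Cbx3 to Cbx5 ran from -2.78 over -1.93 to -0.75 in Control and from -1.83 over -1.02 to 1.28 in Padi6-mutant embryos, with 2 of 9 above every Control embryo. That of Cbx1 to Cbx5 ran from -1.76 over -0.51 to -0.33 and from -0.81 over -0.33 to 1.20, with 4 of 9 above.

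**Figure D3:**
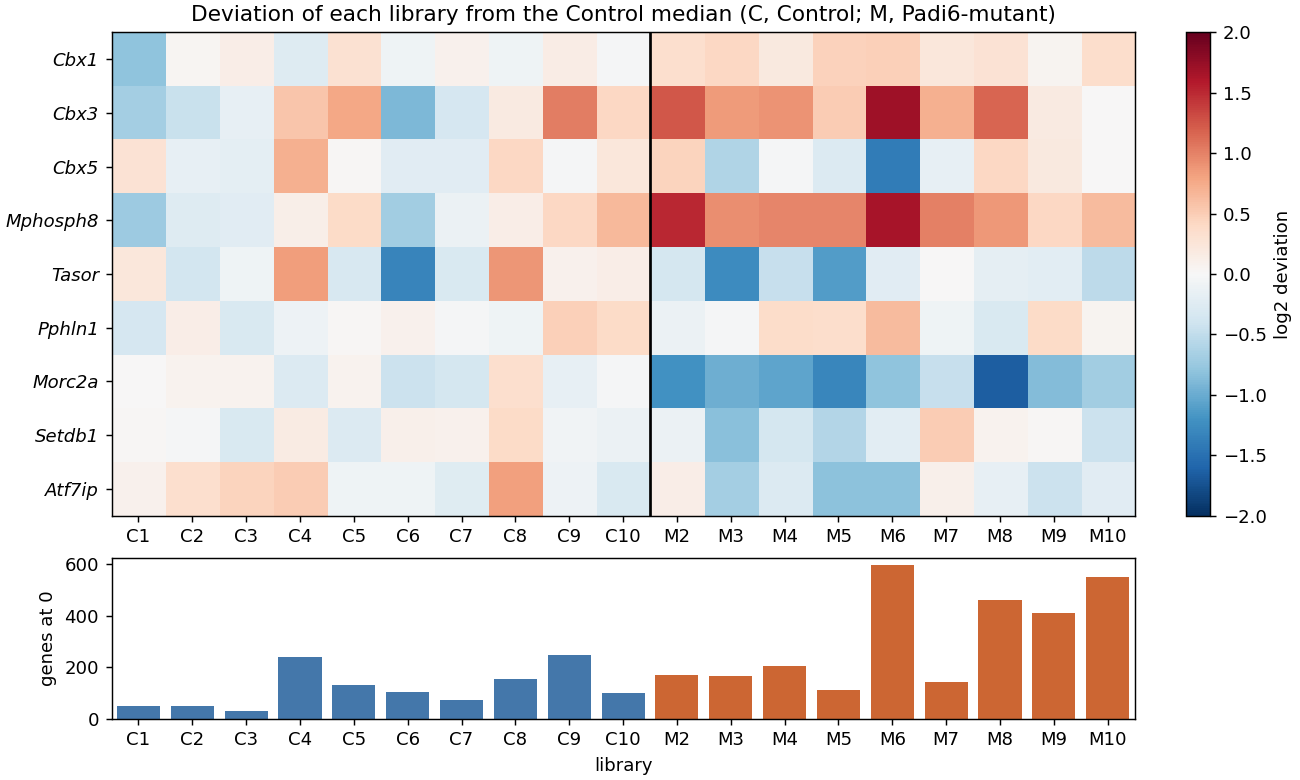
Upper panel: log2 deviation of each library (columns, C for Control and M for Padi6-mutant) from the Control median of each gene (rows). Lower panel: genes at 0 in the same libraries. Mphosph8 is above and Morc2a below the Control median in all 9 Padi6-mutant libraries, and M6, with 596 genes at 0, is highest in its group for 4 genes and lowest for Cbx5.

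Single embryos carried several of the extremes. Padi6-mutant embryo 6, with 596 genes at 0, was highest of its group for Cbx1, Cbx3, Mphosph8 and Pphln1 and lowest for Cbx5. Padi6-mutant embryo 7, with 143 genes at 0, was highest for Tasor, Morc2a and Setdb1. Among Control embryos, embryo 8 was highest for Tasor, Morc2a, Setdb1 and Atf7ip, embryo 1 lowest for Cbx1, Mphosph8 and Pphln1, and embryo 6 lowest for Cbx3, Tasor and Morc2a. After each gene's group means were subtracted, the pair of members that lay closest over the 19 libraries was Cbx3 and Mphosph8, with a root mean square difference of 0.278, and the farthest pair was Cbx3 and Cbx5, at 0.727. These values describe how embryos vary within groups and share library and depth.

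Transcript length moved with the differences. Among genes of 763 to 1237 nt, the class of Cbx3 by its shortest principal GENCODE transcript (1080 nt), the median difference over all genes was 0.68, and in the class of 5762 nt and longer, which holds Tasor and Atf7ip, it was -0.31. Mphosph8, at 2939 nt, belongs to a class of 2515 to 2977 nt whose median was -0.25, and 93.6% of that class had a lower difference than Mphosph8. Morc2a, at 5085 nt, belongs to a class whose median was -0.29, and 13.7% of that class had a lower difference. Cbx3 stood near the middle of its class, where 54.7% of genes were lower, but by its longest transcript (1889 nt) its class had a median of -0.15 and 87.6% of genes were lower.

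With a smooth trend on length and GC content taken out of each library, using the shortest principal transcript, Mphosph8 stayed at 1.03 (limma adjusted p = 8.4e-05) and Morc2a at -0.72 (0.00119). Cbx3 went to -0.09 (limma adjusted p = 0.718) and Cbx1 to -0.11 (0.434), so both lost their direction and their call. Cbx5 went to -0.92 (limma adjusted p = 0.0126) and Tasor to -0.41 (0.0175), which passed, and Atf7ip to -0.29 (0.172). The choice of transcript bears on the HP1 genes most, since that of Cbx5 is 1146 nt long in the shortest form and 8803 nt in the longest. With the longest transcript of each gene, an alternative added after the values were seen, Cbx3 was at 0.54 (limma adjusted p = 0.049), Cbx1 at 0.25 (0.0804) and Cbx5 at -0.16 (0.578). Tasor passed with the longest transcript too, at -0.42 (limma adjusted p = 0.0144). The direction of Cbx1 and Cbx3 thus turned under the first of these fits and not the second, while Mphosph8 and Morc2a kept their call in both.

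Mphosph8 and Morc2a passed in each of 3 fits that take up library quality, while the calls of the other genes depended on which was used. With library quality weights, all 5 calls held: Mphosph8 was at 1.14 (limma adjusted p = 1.28e-05), Morc2a at -0.99 (2.14e-05), Cbx3 at 0.95 (0.000887), Cbx1 at 0.34 (0.0292) and Atf7ip at -0.49 (0.0248). With a term for how many genes each library detected (the covariate fit), Mphosph8 was at 0.95 (limma adjusted p = 0.0114) and Morc2a at -0.94 (0.00343), while Cbx3 (0.55, 0.267), Cbx1 (0.35, 0.184) and Atf7ip (-0.45, 0.187) did not pass. Without Padi6-mutant embryos 6, 8, 9 and 10, Mphosph8 was at 1.11 (limma adjusted p = 0.00186), Morc2a at -0.93 (0.00182), Cbx3 at 0.80 (0.0542), Cbx1 at 0.38 (0.129) and Atf7ip at -0.45 (0.164). Their sizes changed little in that smaller fit of 5 against 10 embryos.

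**Figure D4:**
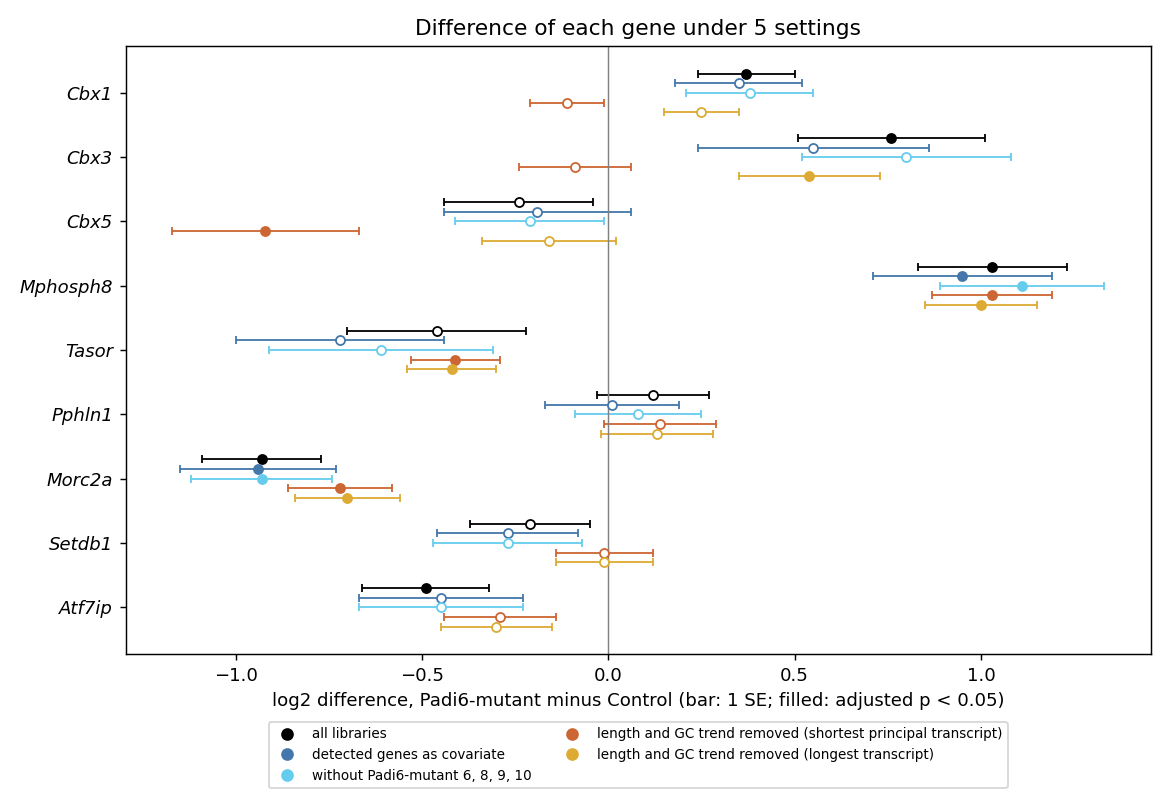
Difference of each gene (log2, Padi6-mutant minus Control, with 1 SE as bars) under 5 fits in 5 colours, filled where the limma adjusted p was under 0.05. Mphosph8 stays right of 0 and Morc2a left of 0 and filled in all 5, while Cbx1 and Cbx3 cross to just under 0 with length and GC trend removed by the shortest principal transcript.

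Levels of different genes were compared only per kilobase of transcript, as log2 of the scaled count per kb. With the shortest principal transcript, the Control means fell from Cbx5 (13.13 ± 0.32, SD, n = 10) over Cbx1 (12.19 ± 0.30), Cbx3 (11.36 ± 0.65), Pphln1 (10.82 ± 0.26), Setdb1 (9.78 ± 0.21), Tasor (9.56 ± 0.64), Mphosph8 (9.53 ± 0.46) and Atf7ip (9.11 ± 0.37) to Morc2a (8.66 ± 0.23). Neighbours from Setdb1 to Atf7ip, and Cbx3 with Pphln1, differed by less than the larger of their SDs, and the other neighbours by more. With the longest transcript Cbx5 came after Cbx1, Pphln1 and Cbx3, at 10.19 ± 0.32, so its first place rests on the transcript taken. In Padi6-mutant embryos Mphosph8 was at 10.56 ± 0.39 (SD, n = 9), above Setdb1 at 9.57 ± 0.39 and Tasor at 9.11 ± 0.43, and Morc2a stayed last at 7.72 ± 0.35. Within HUSH, the mean levels per kb of Tasor and Mphosph8 were thus closer than either SD in Control embryos and further apart than either SD in Padi6-mutant embryos.

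Genes whose products work beside these 9 were looked at as lists drawn up with earlier results of these data known. Of 64 measured genes in the lists, 13 fell, 51 did not pass and 0 rose in the limma fit, with a median difference of -0.37. At an unadjusted p of 0.05, 23 (35.9%) were lower and 1 (1.56%), Sumo2, was higher, where the shares over all genes were 19.6% lower and 18.9% higher, and with library quality weights limma called 3 higher. The background for lower calls, also for each list below, was 12.0% of all genes, but it varied with level and transcript length. Among the 7086 genes above the median level, fitted alone, 1332 were lower and 1242 higher. In the class of 5762 nt and longer, by the shortest principal transcript, 20.0% were lower and 2.43% higher. How far level and length bear on the counts of list genes was not tested.

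Among proteins that bind HP1, 5 of 17 measured genes fell and the list's median was -0.42. Chaf1a, the large subunit of the CAF-1 histone chaperone, ran from 10.30 over 11.27 to 12.08 in Control and from 7.77 over 9.79 to 10.58 in Padi6-mutant embryos. It fell by 1.55 (SE 0.30, limma adjusted p = 0.0006), and 7 of 9 Padi6-mutant embryos were below every Control embryo, the lowest being embryo 6. Lbr, the lamin B receptor, ran from 12.61 over 13.17 to 14.09 and from 11.91 over 12.30 to 13.10, and fell by 0.81 (SE 0.18, limma adjusted p = 0.00216). Ahctf1, which encodes the nuclear pore protein ELYS, ran from 13.47 over 13.92 to 14.33 and from 12.81 over 13.31 to 13.48, and fell by 0.60 (SE 0.14, limma adjusted p = 0.0023). The other two were Lmnb1 at -0.89 and Chd4 at -0.54, named here after their values were seen.

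Among the genes that bring SETDB1 to its sites, 3 of 18 fell, where 12.0% of all genes did, and the median was -0.18. Trim28, the corepressor of KRAB zinc finger proteins, ran from 12.97 over 14.11 to 14.97 in Control and from 12.42 over 13.22 to 13.65 in Padi6-mutant embryos, and fell by 0.99 (SE 0.23, limma adjusted p = 0.0032). All 9 Padi6-mutant embryos were below the Control median, and 3 were below every Control embryo. In the covariate fit it was at -0.49 (limma adjusted p = 0.175), without the 4 libraries with most genes at 0 at -0.68 (0.0851). Daxx, a chaperone of histone H3.3, fell by 1.22 (SE 0.35, limma adjusted p = 0.012), and in the same fits was at -0.83 (0.199) and -1.13 (0.078). Mbd1, a methyl-CpG binding protein, fell by 0.66 (SE 0.19, limma adjusted p = 0.0147), with 6 of 9 Padi6-mutant embryos below every Control embryo. Its call was lost in the covariate fit (-0.71, limma adjusted p = 0.058) and with the replicate block (-0.59, 0.0573). Without the 4 libraries it passed (-0.80, limma adjusted p = 0.0205).

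With the length and GC trend removed (shortest principal transcript), Trim28 was at -0.48 (limma adjusted p = 0.071), Mbd1 at -0.38 (0.132) and Prdm2, an H3K9 methyltransferase described below, at -0.40 (0.0642), none past the threshold. In the covariate fit Chaf1a was at -0.88 (limma adjusted p = 0.0531).

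Of 4 measured relatives and partners of HUSH, Tasor2, a paralogue of Tasor, fell and 3 did not pass. It ran from 11.73 over 11.99 to 12.80 in Control and from 10.69 over 11.39 to 11.70 in Padi6-mutant embryos. The groups did not overlap, though their nearest values were 11.70 and 11.73. Over all genes 0.289% had every Padi6-mutant embryo below every Control embryo. Tasor2 was named because it passed the test. The Tasor2 difference was -0.79 (SE 0.17, limma adjusted p = 0.0017), beside -0.46 for Tasor, which did not pass. Whether these 2 differences differ from each other was not tested.

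Of 8 other H3K9 methyltransferase genes and partners, Prdm2 alone passed and fell by 0.70 (SE 0.18, limma adjusted p = 0.00733), and the list's median was -0.34. Of 10 measured H3K9 demethylase genes, Kdm3a alone passed and fell by 0.66 (SE 0.19, limma adjusted p = 0.0121), with a median of -0.44. Among the 5 Polycomb chromobox genes, the relatives of HP1 that read another histone mark, Cbx7 alone passed and fell by 1.27 (SE 0.27, limma adjusted p = 0.0011) with 7 of 9 Padi6-mutant embryos below every Control embryo. Of the 2 chromodomain Y-like readers, Cdyl2 fell by 0.98 (SE 0.33, limma adjusted p = 0.0326), a call lost without any of Control 1, 2, 3, 4, 6 or 8 or Padi6-mutant 8 or 10, with adjusted p of 0.0512 to 0.0629. It was also lost in the covariate fit (-0.56, limma adjusted p = 0.384), without the 4 libraries with most genes at 0 (-0.76, 0.208) and with the trend removed (-0.63, 0.131, and -0.66, 0.114, by shortest and longest transcript). The 15 genes of the 2-cell stage were not analysed here.

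**Figure D5:**
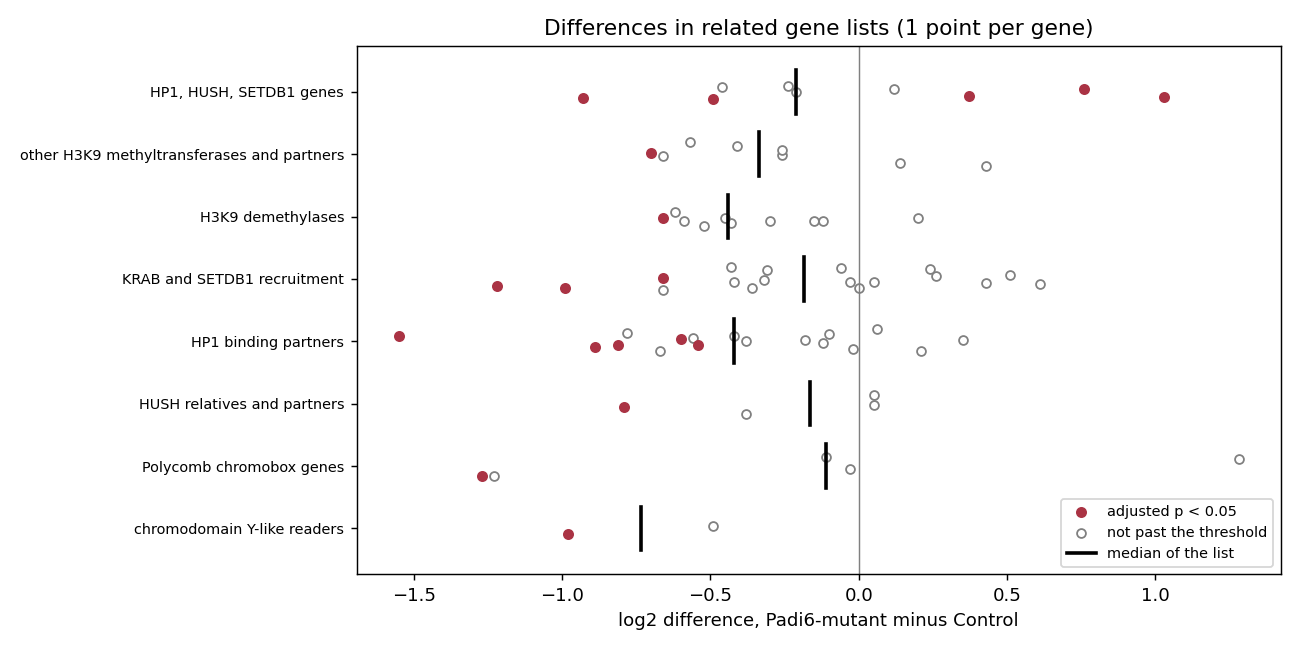
Difference of each gene (log2, Padi6-mutant minus Control, 1 point per gene) in the 9 HP1, HUSH and SETDB1 genes and 7 related lists, filled where the limma adjusted p was under 0.05, with the median of each list as a bar. Filled points right of 0 are found for 3 of the 9 genes and for 0 of the 64 list genes in this fit.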

How the data were processed

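Single-blastocyst polyadenylated RNA libraries were made after physical separation of RNA and DNA, with template switching, PCR amplification and Nextera XT, per the labels' protocols. The submitters' processing notes name Trim Galore 0.4.4 for trimming, HISAT2 2.1.0 for alignment and the builds GRCm39 and mm39. The counting tool and annotation are not given in the sources used here. The deposited table holds log2 values of 14173 genes, and undoing the log2 gave whole numbers to within 1.96e-07, which were taken as a scaled count to which 1 had been added. The upper quartile was the same in all 19 libraries, and each listed gene was above 0 in at least 9.

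The deposited log2 values went into limma 3.58.1 under R 4.3.3 (two-sided, lmFit and then eBayes with its trend option). P-values of all genes were adjusted together after Benjamini and Hochberg, and 0.05 was the threshold. The fit was tested on simulated data. Alternatives were a replicate block, quantile normalization, scaling on always detected genes, a pseudocount of 10, 2 filters on low values, no variance trend, library quality weights, detected genes as covariate, omission of 4 Padi6-mutant libraries or of each library in turn, and removal of a lowess trend (span 0.3) on transcript length and GC content. Lengths came from GENCODE M21 by symbol for 13564 genes (95.7%), 207 by an older symbol, and promoter windows from RefSeq on GRCm38.p6, a build other than the authors', while the deposited table gives no coordinates. No 2 libraries were duplicates (highest Spearman's rho 0.972).

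The members and lists were chosen with earlier results of these data known. Named were all 9 members, Padi6, up to 3 called genes of each list by adjusted p, genes that overlap or copy a member, and the 2 genes that vary most like each member.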

Additional observations from a re-analysis of the deposited data

Results flagged for a closer look

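In 42 groups of values of the named genes, 6 held a library whose gap to the next, set against the group's range, exceeded Dixon's 95% critical value for its size; chance flags about 1 in 20 groups. Cbx1 in Control embryo 1 was 11.77, the next being 12.31, and without that embryo the Cbx1 difference was 0.28 with limma adjusted p = 0.0797. Cbx7 in the same embryo was the highest at 12.49, the next being 11.55. Chaf1a in Padi6-mutant embryo 6 was 7.77, the next being 9.19. Padi6-mutant embryo 3 was lowest for Kdm3a, at 10.19 before 10.97, and for Tasor2, at 10.69 before 11.25. Cdyl2 in Control embryo 9 was 7.84, the next being 9.94. No explanation of these values was tested.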

How the results depend on the processing

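Mphosph8 and Morc2a kept direction and call in all 12 alternatives and all 19 omissions; the other 7 members did not all do so. What depth limits in these 9 genes was not tested. Members called went from 5 to 2 with the replicate block, 3 with no variance trend, 2 with detected genes as covariate, 2 without the 4 libraries with most genes at 0, and 2 to 5 with each library left out. Cbx1 was 0.28 with the block (limma adjusted p = 0.171), 0.29 with quantile normalization (0.114), 0.37 with no trend (0.062), 0.35 with the covariate, 0.38 without the 4 libraries, 0.25 with the longest-transcript trend, -0.11 with the length and GC trend, and 0.28 to 0.41 over omissions. Cbx3 was 0.68 with the block (limma adjusted p = 0.132), 0.55, 0.80 and -0.09 in the covariate, 4-library and trend fits, and 0.65 to 0.87 over omissions. Atf7ip was -0.50 with the block (limma adjusted p = 0.0741), -0.49 with no trend (0.0569), -0.45 with the covariate and without the 4 libraries, -0.29 and -0.30 with both trends, and -0.55 to -0.42 over omissions. Tasor was -0.72 with the covariate, -0.61 without the 4 libraries, -0.41 and -0.42 with both trends and -0.60 to -0.35 over omissions, and Cbx5 -0.92 with the first trend. Genes changed went from 3765 to 1807 with the covariate, genes higher from 2068 to 1242 among genes above the median level and 1308 with the covariate, and genes lower from 1697 to 987 with the block, 2689 with quality weights, 499 with the covariate and 941 without the 4 libraries. List genes higher were 3 with quality weights and 1 with the covariate (0 to 1 over omissions), and list genes lower 20, 6 and, with the longest-transcript trend, 8. Padi6 turned to 0.07 with a pseudocount of 10, 0.04 with quality weights, 0.21 and 0.18 with both trends, and ran from -0.39 to 0.52 over omissions, and Ccdc66 was -0.01 without Control 6. Of 9 same-numbered pairs, 1 had deviations correlated above 0.1 (from -0.072 to 0.152) and 1 Padi6-mutant library matched its own number best, so the numbers were not taken as pairs. The fit among genes above the median level held 7086 genes in place of 14173, so its counts come from fewer genes. Beyond that, and the fewer samples in the omissions, the 4-library fit and the replicate block, no cause of these shifts was tested. The block left out Control 1, whose number no Padi6-mutant library shares.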

Other observations

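Genes whose levels varied most like those of each member over the 19 libraries, after each group's own mean was subtracted, were found among 6902 named genes above the median level, by root mean square log2 difference. For Mphosph8 these were Eif5b (0.148), a translation initiation factor, and Hnrnpd (0.173), an RNA-binding protein, and for Morc2a Cnot7 (0.186), a deadenylase, and Foxo3 (0.199), a transcription factor. For Tasor they were Mdn1 (0.161) and Zfp638 (0.204), for Pphln1 Dnajb6 (0.202) and Gpn3 (0.203), for Setdb1 Septin11 (0.176) and Ncoa3 (0.21), and for Atf7ip Dicer1 (0.217) and Hps3 (0.234). For Cbx1 they were Ppa2 (0.146) and Rer1 (0.172), for Cbx3 Mrpl1 (0.187) and Eif2s2 (0.21), and for Cbx5 Pdlim5 (0.238) and Copg2 (0.245). No member was among the nearest 2 genes of another member. The long noncoding gene Gm16973, whose exons overlap 10.7% of Mphosph8 exon bases on the other strand, was at 4.46 to 7.28 in Control and 5.00 to 7.59 in Padi6-mutant embryos, far under Mphosph8 in both groups. Cers2, which overlaps 1.1% of Setdb1 exon bases on the other strand, fell by 0.44 (SE 0.15, limma adjusted p = 0.0394), a call lost in 14 of its alternatives and omissions.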
